A study of Danio rerio with 16 samples.

Results

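Whole zebrafish embryos at 48 hours post fertilization (hpf) were compared between the labelled genotypes hnf4a,hnf4b knockout and sib (the siblings of the knockouts). The comparison covered 8 of the 16 RNA-seq libraries of the series, chosen by their labels of genotype and stage: 4 of knockout embryos, made by CRISPR/Cas9, and 4 of siblings, labelled as untreated. The other 8 libraries hold the same genotypes at 34 hpf. Of 36109 gene symbols, 24084 had enough counts to be tested. The sources used here do not give the alleles, the genotypes among the siblings, the clutches or the number of embryos in a library, and the stage is also the labelled batch. Whether the 4 libraries of a group come from separate clutches is not stated. The p-values therefore reflect the spread among these libraries, which may be technical.

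Hnf4 proteins are nuclear receptors that bind DNA as dimers and drive genes of the liver, gut and kidney in vertebrates, among them genes of lipid transport, blood clotting and glucose metabolism. A zebrafish embryo of this age does not feed and lives on its yolk. The yolk syncytial layer, a tissue around the yolk, packs yolk lipid into lipoproteins on apolipoprotein B with the help of microsomal triglyceride transfer protein, and the liver is still a bud. The title of the series places the study in the mobilization of yolk lipid and in growth after segmentation.

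The knockout libraries held 40677285 to 43194625 counts and the sibling libraries 36186542 to 38101069, so every knockout library was deeper. All 19 marker genes of the embryo's tissues had counts in all 8 libraries, but fabp10a, which marks differentiated liver cells, lay between 0.0983 and 0.746 CPM (counts scaled to a library of 1e+06). The first principal component of the 8 libraries took 37% of their variance and parted the genotypes, and the second took 18.7% and parted replicates 1 and 4 from 2 and 3 in both genotypes. Knockout replicate 1 stood furthest from its group: 71 of 17357 genes differed more than 4-fold from the other 3 knockouts, against 24 to 59 in the other knockout libraries and 11 to 54 in the sibling libraries. Results that rest on it are given with and without it.

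Transcripts of the targeted genes were still counted. hnf4a had 6.04, 12.9, 13.4 and 11.8 CPM in knockouts, against 12.9, 15.9, 10.8 and 9.46 CPM in siblings. The groups overlapped and the gene was not called (log2 fold change -0.15 ± 0.27 SE, edgeR adjusted p = 0.789). Without knockout replicate 1 the log2 fold change was 0.015. hnf4b had 1.21, 1.99, 1.62 and 0.936 CPM in knockouts, against 3.499, 0.995, 2.35 and 3.37 CPM in siblings, again with overlap (log2 fold change -0.83 ± 0.49 SE, edgeR adjusted p = 0.329). The third family member, hnf4g, averaged 0.9997 ± 0.334 CPM in knockouts and 0.783 ± 0.236 CPM in siblings and was not called either. Counts over a whole gene do not show a small lesion, so these levels do not test the labels.

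At 48 hpf 1146 genes were higher (4.76% of those tested) and 1271 lower (5.28%) in knockouts at a Benjamini-Hochberg adjusted p below 0.05 in edgeR's quasi-likelihood test, 10.04% in all. These shares are the background for the counts by gene list below. The falls were the larger changes. More than 2-fold, 286 genes (1.19% of those tested) were higher and 475 (1.97%) lower. More than 8-fold, 34 were higher and 145 lower, and more than 16-fold 15 were higher and 86 lower. Among called genes, those that rose gained 40265 CPM in sum and those that were lower fell by 52878 CPM, and the called apolipoproteins alone fell by 13588 CPM. The share of genes called climbed with abundance, 3.75% below an average log2 CPM of 1 and 17.5% above 7, and the median size of a called change in these bands was 2.04 and 0.46 on the log2 scale. The 2 groups of 4 did not overlap for 4623 genes (19.2%). The count of higher genes was 794 without knockout replicate 1, 706 without sibling replicate 1, 680 without sibling replicate 2 and 721 without sibling replicate 3, and that of lower genes 826 without sibling replicate 2 and 829 without sibling replicate 3. Fewer cells of a type and less RNA per cell cannot be told apart in whole embryos.

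**Figure D1:**
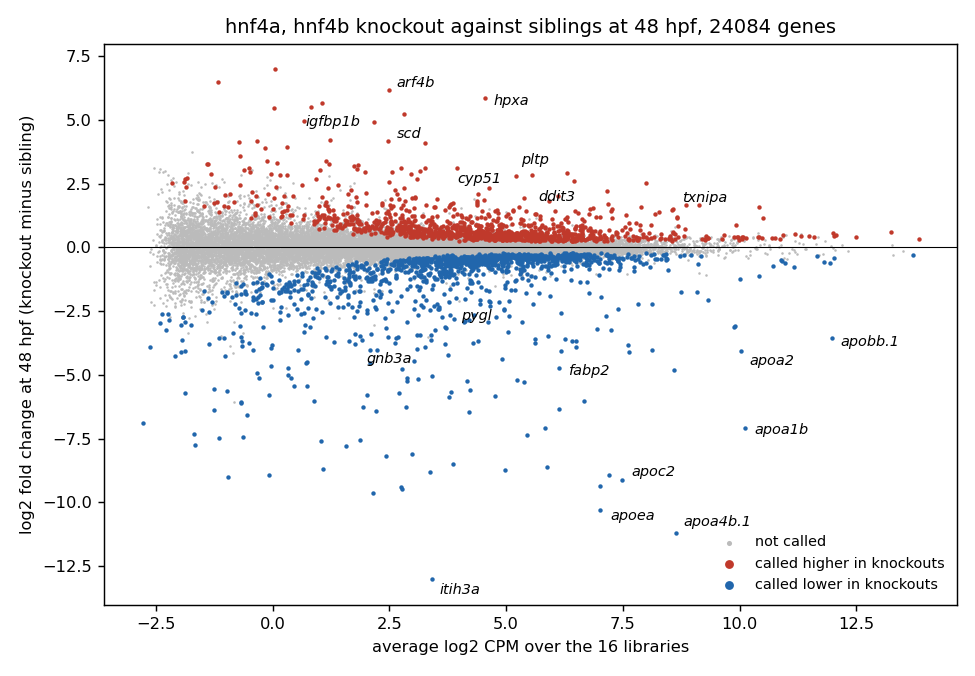
Each point is 1 of the 24084 genes tested, with its average log2 CPM over the 16 libraries on the horizontal axis and its log2 fold change at 48 hpf, knockout minus sibling, on the vertical axis. Red points were called higher in knockouts (1146) and blue points lower (1271). The apolipoprotein genes apoa1b, apoa2 and apobb.1 combine a high level with a large fall.

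The largest fall in abundance was in the protein shell of lipoproteins. Apolipoproteins took 0.201% ± 0.0747 of all counts in knockouts and 1.58% ± 0.0903 in siblings (SD, n = 4 each; exact two-sided permutation p = 0.0286, the smallest that 4 against 4 allows; 0.04 adjusted over 14 gene classes). Of 18 tested, 13 fell and none rose, with a median log2 fold change of -3.33 over the list beside 0.001 over all genes. apobb.1, an apolipoprotein B that forms the particle, had 199.8, 419, 709 and 545 CPM in knockouts, against 4967, 5303, 6189 and 5794 CPM in siblings. The groups lay far apart, with knockout replicate 1 the lowest (log2 fold change -3.57 ± 0.38 SE, edgeR adjusted p = 1.36e-05). apoa1b, the main protein of high-density particles, had 10.4, 23.1, 23.6 and 8.94 CPM in knockouts, against 2031, 2513, 2375 and 2132 CPM in siblings (log2 fold change -7.1 ± 0.80 SE, edgeR adjusted p = 2.37e-05). apoa2, another protein of these particles, had 57.6, 189.7, 177 and 71.5 CPM in knockouts, against 1757, 2279, 2334 and 1940 CPM in siblings (log2 fold change -4.07 ± 0.54 SE, edgeR adjusted p = 0.000124). No knockout library reached a sibling level for any of these.

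Several other apolipoproteins were close to absent in knockouts. apoea, a ligand of lipoprotein receptors, had 0.116, 0.192, 0.292 and 0.328 CPM in knockouts, against 163, 342, 261 and 410.2 CPM in siblings (log2 fold change -10.29 ± 0.73 SE, edgeR adjusted p = 1.79e-07). apoc2, the cofactor of lipoprotein lipase, had 0.279, 1.08, 0.943 and 0.187 CPM in knockouts, against 281, 378, 400.2 and 324 CPM in siblings (log2 fold change -9.11 ± 1.35 SE, edgeR adjusted p = 0.000324). apoa4b.1 averaged 0.282 ± 0.174 CPM in knockouts and 670.0 ± 122 CPM in siblings (log2 fold change -11.21 ± 1.95 SE, edgeR adjusted p = 0.00135). apoa1a averaged 191 ± 69.5 CPM in knockouts and 1639 ± 164 CPM in siblings (log2 fold change -3.1 ± 0.54 SE, edgeR adjusted p = 0.00129). apoa4b.2 averaged 0.133 ± 0.114 CPM in knockouts and 53.3 ± 22.6 CPM in siblings, and its log2 fold change of -8.61 became -9.40 without knockout replicate 1. Reads of near-identical copies such as the apoa4b and apobb genes may be split or lost, and how the counting treated them is not given in the sources used here.

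The machinery that fills lipoproteins fell in part. Of 25 genes of assembly and export 10 were called lower and 1 higher. Without knockout replicate 3 or without sibling replicate 2 the lower count was 6. mttp, which moves lipid onto apolipoprotein B, had 5.06, 4.82, 4.98 and 5.57 CPM in knockouts, against 24.1, 22.2, 24.01 and 25.2 CPM in siblings (log2 fold change -2.22 ± 0.21 SE, edgeR adjusted p = 3.63e-06). dgat2, which makes triglyceride, had 7.29, 9.63, 11.3 and 1.83 CPM in knockouts, against 134, 146, 152 and 72.2 CPM in siblings (log2 fold change -4.06 ± 0.61 SE, edgeR adjusted p = 0.000341). soat2, which makes cholesteryl esters for export, averaged 0.377 ± 0.254 CPM in knockouts and 4.76 ± 2.07 CPM in siblings (log2 fold change -3.65 ± 0.55 SE, edgeR adjusted p = 0.000394). The groups did not overlap for these 3 genes.

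Of 27 genes listed as lipoprotein receptors, lipases, transfer proteins and their regulators, 10 were higher, 3 lower and 14 not called. Among the higher ones scarb2a is also on the list of lysosomal genes. pltp, which transfers phospholipid between particles, had 65.3, 106, 92.6 and 96.8 CPM in knockouts, against 15.3, 10.1, 13.7 and 11.3 CPM in siblings (log2 fold change 2.84 ± 0.23 SE, edgeR adjusted p = 7.02e-07). lipg, endothelial lipase, had 57.8, 49.4, 47.9 and 53.7 CPM in knockouts, against 22.2, 13.5, 15.6 and 17.9 CPM in siblings (log2 fold change 1.59 ± 0.14 SE, edgeR adjusted p = 1.24e-06). All 4 knockouts lay above all 4 siblings for both. Among those that fell were cetp, the cholesteryl ester transfer protein, and vldlr, a lipoprotein receptor.

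**Figure D2:**
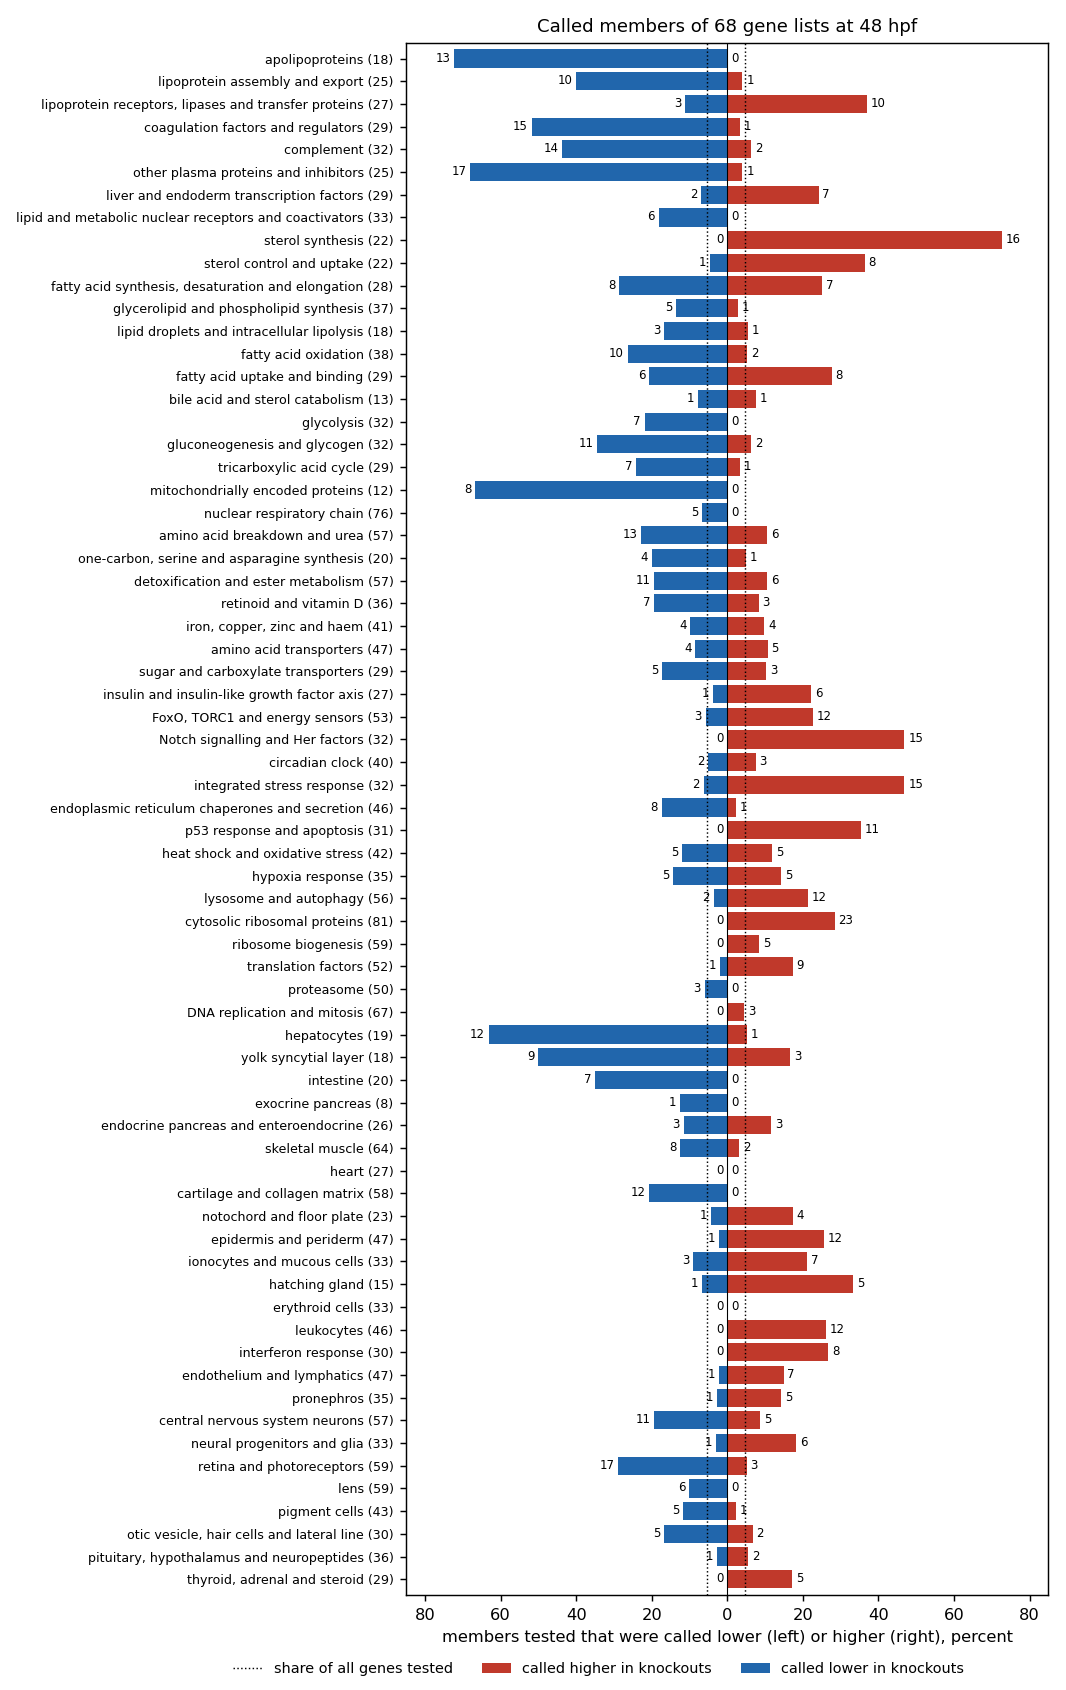
Bars give the percent of the tested members of each of 68 gene lists (number tested in brackets) that were called lower (blue, to the left) or higher (red, to the right) in knockouts at 48 hpf, with the number of genes at the bar's end. Dotted lines mark 5.28% lower and 4.76% higher among all genes. Apolipoproteins (13 of 18 lower) and sterol synthesis (16 of 22 higher) lie at the extremes.

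Secreted blood proteins fell with the apolipoproteins. The coagulation, complement and other plasma protein lists took 0.186% ± 0.0532 of counts in knockouts and 0.655% ± 0.107 in siblings (SD, n = 4 each; exact permutation p = 0.0286). Of 29 coagulation genes 15 were lower and 1, pros1, higher. Of 32 complement genes 14 were lower and 2, cfbl and c6, higher. Of 25 genes listed as other plasma proteins 17 were lower, among them the intracellular enzyme uox, and 1 was higher. fga, a fibrinogen chain, had 9.703, 8.63, 20.8 and 9.78 CPM in knockouts, against 165, 225, 204 and 136 CPM in siblings (log2 fold change -3.898 ± 0.35 SE, edgeR adjusted p = 2.06e-06). f9b, a clotting factor gene, had 0.998, 0.479, 0.224 and 0.866 CPM in knockouts, against 18.95, 23.7, 21.4 and 22.1 CPM in siblings (log2 fold change -5.06 ± 0.40 SE, edgeR adjusted p = 5.25e-07). serpind1, heparin cofactor, averaged 0.745 ± 0.145 CPM in knockouts and 8.63 ± 1.38 CPM in siblings. c8b, a part of the membrane attack complex, had 0.534, 0.431, 0.539 and 0.164 CPM in knockouts, against 22.9, 27.8, 27.5 and 19.1 CPM in siblings and had one of the smallest p-values of all falls (log2 fold change -5.85 ± 0.31 SE, edgeR adjusted p = 8.86e-09). c9 of the same complex averaged 24.3 ± 11.4 CPM in knockouts and 226 ± 14.5 CPM in siblings (log2 fold change -3.22 ± 0.37 SE, edgeR adjusted p = 3.07e-05).

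Among the other plasma proteins and clotting factors, several genes fell steeply. itih3a, a heavy chain of the inter-alpha-trypsin inhibitor, had 0 counts in all knockouts, against 22.9, 37.4, 35.3 and 10.7 CPM in siblings, which is at least 1520-fold lower, with the floor taken as 3 counts in the 4 libraries together. a2ml, a broad protease inhibitor, had 10.8, 17.5, 27.8 and 24.4 CPM in knockouts, against 341, 362, 393 and 269.5 CPM in siblings (log2 fold change -4.09 ± 0.29 SE, edgeR adjusted p = 1.59e-07). ambp, from which the light chain of the same inhibitor is cut, averaged 6.86 ± 1.93 CPM in knockouts and 69.3 ± 2.87 CPM in siblings (log2 fold change -3.33 ± 0.36 SE, edgeR adjusted p = 1.63e-05). f7, a clotting factor gene, had 1 count over the 4 knockouts and 561 over the 4 siblings, a depth-scaled ratio of 641 with a 95% counting interval of 115 to 25400. Such floors and intervals cover counting error only.

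The 1 gene that rose among the other plasma proteins was hpxa, hemopexin, which binds free haem. It had 7.85, 164, 103 and 18.9 CPM in knockouts, against 0.881, 1.44, 1.86 and 0.862 CPM in siblings, so all 4 knockouts lay above all siblings but differed among themselves more than 20-fold. Its log2 fold change was 5.86 (edgeR adjusted p = 0.00413), 5.09 without knockout replicate 2, and limma-voom gave an adjusted p of 0.078. Erythroid genes, which make the haem proteins of blood, took 0.500% ± 0.229 of counts in knockouts and 0.486% ± 0.218 in siblings (SD, n = 4 each; exact permutation p = 0.8286). In replicates 1 to 4 the share was 0.680%, 0.604%, 0.551% and 0.165% in knockouts, against 0.674%, 0.566%, 0.533% and 0.171% in siblings. The permutation ignores this pairing by replicate number.

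Of 29 transcription factors of the liver and endoderm 2 were lower and 7 higher, cebpd among the higher ones. cebpd, an acute-phase factor, had 71.3, 49.7, 51.01 and 40.97 CPM in knockouts, against 20.97, 19.4, 22.00 and 14.5 CPM in siblings (log2 fold change 1.47 ± 0.16 SE, edgeR adjusted p = 1.78e-05). No member of the list of 33 metabolic nuclear receptors and coactivators was called higher and 6 were called lower, each by less than 1 on the log2 scale. Single libraries left out gave 2 (knockout replicate 4 or sibling replicate 3) or 3 (knockout replicate 3, sibling replicate 2 or 4).

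Enzymes and binding proteins typical of liver, gut and the yolk syncytial layer were prominent among the steepest falls. Of 19 hepatocyte markers 12 were lower and 1 higher, of 18 markers of the yolk syncytial layer 9 and 3, and of 20 intestinal markers 7 and 0. These lists share genes with those of apolipoproteins and plasma proteins, and all 12 lower hepatocyte markers are on those lists. The hepatocyte markers not called were hpda, agxta, pah, cps1, tdo2a and fabp10a. On the yolk syncytial layer list the 3 higher genes were lgmn, ctsla and cd63. Its genes gata5, gata6 and mxtx1 were not called. fabp2, the intestinal fatty acid binding protein, had 3.62, 3.595, 2.78 and 1.78 CPM in knockouts, against 57.5, 112, 83.00 and 57.5 CPM in siblings, with no overlap and the smallest p of the comparison together with c8b (log2 fold change -4.72 ± 0.24 SE, edgeR adjusted p = 8.86e-09). ces2, a carboxylesterase, had 0.975, 0.479, 0.763 and 0.281 CPM in knockouts, against 266, 327, 381 and 242 CPM in siblings (log2 fold change -8.92 ± 1.25 SE, edgeR adjusted p = 0.000192). cyp2aa8, a cytochrome P450 of xenobiotic metabolism, had 0.186, 1.34, 1.39 and 0.562 CPM in knockouts, against 38.3, 34.6, 31.3 and 27.4 CPM in siblings (log2 fold change -5.23 ± 0.41 SE, edgeR adjusted p = 5.25e-07), and its neighbour in the family cyp2aa4 averaged 1.55 ± 0.692 CPM in knockouts and 13.5 ± 3.06 CPM in siblings. Of 57 detoxification and ester genes 11 fell and 6 rose. akr1a1a, an aldehyde reductase, had 2 counts over the 4 knockouts and 1491 over the 4 siblings (ratio 852, interval 235 to 7040), and cyp4v8, a cytochrome P450 of a family that hydroxylates fatty acids, had 2 and 1759 (ratio 1010, interval 278 to 8310).

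Further genes with almost no reads in knockouts were spread over other functions. ces3, another carboxylesterase, averaged 0.0232 ± 0.0464 CPM in knockouts and 18.9 ± 11.9 CPM in siblings. Its log2 fold change of -9.48 was -12.54 without knockout replicate 1, the only knockout library with counts, and limma-voom gave an adjusted p of 0.137. spam1, a hyaluronidase, averaged 0.0354 ± 0.0449 CPM in knockouts and 10.95 ± 1.56 CPM in siblings, with a log2 fold change of -8.17 that was -9.19 without knockout replicate 4. cbln10, a gene of the cerebellin family of secreted proteins, had 0.0464, 0, 0.0449 and 0 CPM in knockouts, against 9.798, 12.9, 11.2 and 13.1 CPM in siblings (log2 fold change -8.798 ± 1.14 SE, edgeR adjusted p = 9.4e-05). epdl2, an ependymin-like gene, had 0.0929, 0.144, 0.135 and 0.281 CPM in knockouts, against 29.2, 111, 80.8 and 61.2 CPM in siblings (log2 fold change -8.73 ± 0.71 SE, edgeR adjusted p = 7.62e-07). pcyt1bb, which makes the activated choline for phosphatidylcholine, averaged 0.0237 ± 0.0274 CPM in knockouts and 5.92 ± 1.92 CPM in siblings (log2 fold change -7.804 ± 0.93 SE, edgeR adjusted p = 4e-05).

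Vitamin handling fell at several steps. Of 36 retinoid and vitamin D genes 7 were lower and 3 higher. rbp2a, a cellular retinol binding protein, had 0.0929, 1.32, 0.449 and 0.515 CPM in knockouts, against 25.5, 47.4, 33.8 and 15.4 CPM in siblings. Its log2 fold change was -5.69 (edgeR adjusted p = 3.3e-05) and -6.42 without knockout replicate 2. rdh1, a retinol dehydrogenase gene, averaged 0.105 ± 0.0613 CPM in knockouts and 1.65 ± 0.498 CPM in siblings (log2 fold change -3.93 ± 0.57 SE, edgeR adjusted p = 0.000256). cyp27b1, which activates vitamin D, had 0.186, 0.527, 0.898 and 0.796 CPM in knockouts, against 5.78, 7.35, 6.204 and 6.28 CPM in siblings (log2 fold change -3.403 ± 0.50 SE, edgeR adjusted p = 0.000298), while trpv6, the epithelial calcium channel of ionocytes, had 8.13, 7.38, 6.33 and 6.53 CPM in knockouts, against 3.06, 3.37, 3.36 and 3.23 CPM in siblings (log2 fold change 1.12 ± 0.21 SE, edgeR adjusted p = 0.00202). tcn2, the carrier of vitamin B12, had 11.5, 10.1, 8.595 and 8.42 CPM in knockouts, against 39.6, 52.7, 51.3 and 45.3 CPM in siblings (log2 fold change -2.29 ± 0.14 SE, edgeR adjusted p = 5.12e-08).

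Sugar metabolism leaned downward. Of 32 genes of gluconeogenesis and glycogen 11 fell and 2 rose, and of 32 glycolysis genes 7 fell and none rose (3 without sibling replicate 3, and 4 without knockout replicate 4, sibling replicate 2 or sibling replicate 4). fbp1b, fructose bisphosphatase, had 0.557, 1.82, 1.17 and 1.497 CPM in knockouts, against 35.9, 46.9, 54.7 and 46.9 CPM in siblings (log2 fold change -5.19 ± 0.75 SE, edgeR adjusted p = 0.00024). slc2a2, the glucose transporter of liver, gut and pancreas, had 0.255, 0.336, 0.269 and 0.351 CPM in knockouts, against 8.63, 13.6, 10.8 and 9.295 CPM in siblings (log2 fold change -5.11 ± 0.72 SE, edgeR adjusted p = 0.000209). pck2, the mitochondrial phosphoenolpyruvate carboxykinase, averaged 40.4 ± 4.72 CPM in knockouts and 77.3 ± 3.48 CPM in siblings (log2 fold change -0.94 ± 0.11 SE, edgeR adjusted p = 5.11e-05). Among glycolytic genes, pklr, the pyruvate kinase of liver and red cells, had 5.85, 3.52, 3.66 and 2.64 CPM in knockouts, against 35.4, 12.9, 13.03 and 13.6 CPM in siblings, with sibling replicate 1 far above the other siblings (log2 fold change -2.26 ± 0.35 SE, edgeR adjusted p = 0.000534). ldha, lactate dehydrogenase, averaged 121 ± 6.75 CPM in knockouts and 221 ± 10.9 CPM in siblings (log2 fold change -0.87 ± 0.09 SE, edgeR adjusted p = 1.2e-05).

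The liver form of glycogen phosphorylase, pygl, which releases glucose from glycogen, separated the genotypes cleanly at 48 hpf. It had 4.503, 5.51, 5.88 and 6.46 CPM in knockouts, against 35.4, 30.5, 33.6 and 41.3 CPM in siblings (log2 fold change -2.65 ± 0.15 SE, edgeR adjusted p = 2.17e-08). At 34 hpf its log2 fold change was -0.50, and the difference between the stages was -2.16 (edgeR adjusted p = 0.000208).

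Of 29 sugar and carboxylate transporters 5 were lower (3 without sibling replicate 2) and 3 higher. slc13a2, a carrier of citric acid cycle intermediates, had 1.07, 2.11, 1.08 and 1.45 CPM in knockouts, against 17.00, 16.6, 12.7 and 18.97 CPM in siblings (log2 fold change -3.52 ± 0.32 SE, edgeR adjusted p = 2.14e-06), whereas slc16a9a, a monocarboxylate transporter family gene, had 26.1, 9.39, 9.29 and 8.77 CPM in knockouts, against 3.11, 2.65, 3.02 and 1.99 CPM in siblings (log2 fold change 2.31 ± 0.34 SE, edgeR adjusted p = 0.000275). Knockout replicate 1 was the highest library for the second gene. A list of 29 genes held citric acid cycle enzymes and also cytosolic forms such as idh1, aco1 and mdh1ab. Of these 29 genes 7 were lower and 1, idh1, higher. suclg2, a subunit of succinyl-CoA ligase, averaged 20.5 ± 3.21 CPM in knockouts and 47.3 ± 3.53 CPM in siblings (log2 fold change -1.205 ± 0.16 SE, edgeR adjusted p = 0.000124). mdh1ab, a malate dehydrogenase, averaged 63.6 ± 3.25 CPM in knockouts and 105 ± 7.08 CPM in siblings (log2 fold change -0.73 ± 0.07 SE, edgeR adjusted p = 8.84e-06).

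Of 57 genes of amino acid breakdown and urea 13 fell and 6 rose (3 rose without sibling replicate 2 or 3). hoga1, a mitochondrial aldolase that ends hydroxyproline breakdown, had 1.56, 1.94, 1.57 and 1.99 CPM in knockouts, against 12.8, 10.9, 8.56 and 7.19 CPM in siblings (log2 fold change -2.48 ± 0.26 SE, edgeR adjusted p = 1.14e-05). mat1a, which makes S-adenosylmethionine in liver, had 41.4, 53.8, 50.6 and 52.7 CPM in knockouts, against 139.6, 122, 113 and 135 CPM in siblings (log2 fold change -1.36 ± 0.17 SE, edgeR adjusted p = 8.01e-05). haao, an enzyme of tryptophan breakdown, averaged 2.53 ± 0.703 CPM in knockouts and 8.29 ± 0.756 CPM in siblings (log2 fold change -1.71 ± 0.24 SE, edgeR adjusted p = 0.000209). rida, an imine deaminase that clears reactive by-products of amino acid metabolism, averaged 4.72 ± 0.325 CPM in knockouts and 30.04 ± 2.35 CPM in siblings (log2 fold change -2.67 ± 0.18 SE, edgeR adjusted p = 1.18e-07). Of 20 one-carbon genes 4 fell and 1 rose. The folate enzyme genes among them had the smallest p: mthfd1a had 1.53, 3.88, 4.47 and 4.42 CPM in knockouts, against 24.1, 44.1, 45.7 and 21.6 CPM in siblings (log2 fold change -3.24 ± 0.36 SE, edgeR adjusted p = 1.71e-05). mthfd1l had 30.3, 33.9, 25.1 and 47.5 CPM in knockouts, against 166, 243, 236 and 243 CPM in siblings (log2 fold change -2.699 ± 0.33 SE, edgeR adjusted p = 5.23e-05).

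Sterol synthesis rose almost throughout. Of 22 enzymes 16 were higher and none lower, with a median log2 fold change of 1.33. Without knockout replicate 1 the count was 14. The list took 0.0758% ± 0.0254 of counts in knockouts and 0.0374% ± 0.00253 in siblings (SD, n = 4 each; exact permutation p = 0.0286), and knockout replicate 1 was the highest at 0.111%. hmgcra, the rate-limiting reductase of the pathway, had 87.8, 15.5, 24.8 and 33.5 CPM in knockouts, against 5.03, 4.697, 4.94 and 4.203 CPM in siblings (log2 fold change 3.098 ± 0.40 SE, edgeR adjusted p = 8.37e-05; log2 fold change 2.35 without knockout replicate 1). cyp51, lanosterol demethylase, had 127, 44.2, 59.7 and 88.2 CPM in knockouts, against 12.2, 11.6, 10.47 and 11.8 CPM in siblings (log2 fold change 2.79 ± 0.24 SE, edgeR adjusted p = 1.24e-06). msmo1, the sterol methyl oxidase, had 41.2, 10.6, 18.02 and 18.9 CPM in knockouts, against 3.27, 3.703, 2.895 and 4.04 CPM in siblings (log2 fold change 2.67 ± 0.32 SE, edgeR adjusted p = 4.67e-05). In each of these the 4 knockouts lay above all siblings and differed among themselves more than the siblings did.

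Among other steps, lss, which closes the sterol ring, averaged 11.5 ± 4.598 CPM in knockouts and 2.41 ± 0.403 CPM in siblings (log2 fold change 2.26 ± 0.28 SE, edgeR adjusted p = 6.51e-05). mvda, of the mevalonate steps, averaged 19.3 ± 3.71 CPM in knockouts and 6.93 ± 1.39 CPM in siblings (log2 fold change 1.48 ± 0.17 SE, edgeR adjusted p = 2.79e-05). Of 22 genes of sterol control and uptake 8 were higher and 1, scap, lower. srebf1, a transcription factor of lipid synthesis, had 250.3, 213, 235 and 238 CPM in knockouts, against 81.9, 67.97, 61.5 and 75.1 CPM in siblings (log2 fold change 1.71 ± 0.13 SE, edgeR adjusted p = 3.94e-07). srebf2, its relative for sterol genes, averaged 86.1 ± 19.3 CPM in knockouts and 39.8 ± 2.81 CPM in siblings (log2 fold change 1.11 ± 0.13 SE, edgeR adjusted p = 4.79e-05). insig1, which holds these factors back when sterols are plentiful, averaged 92.4 ± 22.9 CPM in knockouts and 25.9 ± 3.35 CPM in siblings (log2 fold change 1.84 ± 0.19 SE, edgeR adjusted p = 1.13e-05). ldlra, the low-density lipoprotein receptor, was also called higher.

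Fatty acid genes split. Of 28 genes of synthesis, desaturation and elongation 7 were higher and 8 lower (5 lower without sibling replicate 2). scd, the stearoyl-CoA desaturase, had 17.4, 7.43, 7.495 and 13.7 CPM in knockouts, against 0.778, 0.718, 0.414 and 0.647 CPM in siblings (log2 fold change 4.17 ± 0.32 SE, edgeR adjusted p = 3.94e-07). fads2, the desaturase of polyunsaturated fatty acids, had 23.6, 13.2, 15.4 and 21.8 CPM in knockouts, against 2.88, 2.49, 2.02 and 2.72 CPM in siblings (log2 fold change 2.87 ± 0.24 SE, edgeR adjusted p = 1.09e-06). elovl5, which elongates their products, fell to 8.403, 4.27, 5.88 and 7.77 CPM in knockouts, against 29.7, 53.8, 41.02 and 44.9 CPM in siblings (log2 fold change -2.69 ± 0.29 SE, edgeR adjusted p = 1.49e-05). The groups did not overlap for these 3 genes, and fads2 and elovl5 moved in opposite directions. The other called elongase genes of the list went both ways. Higher were elovl2, elovl1b and elovl7b, and lower were elovl4b, elovl4a and elovl6. Of 38 fatty acid oxidation genes 10 were lower and 2 higher, both of them pyruvate dehydrogenase kinases. Without 1 library the lower count was 6 (knockout replicate 1, sibling replicate 1, 3 or 4) or 5 (sibling replicate 2). pdk2b, one of these kinases, which limit the use of glucose carbon, had 9.15, 6.88, 8.91 and 7.09 CPM in knockouts, against 2.44, 1.55, 1.45 and 1.86 CPM in siblings (log2 fold change 2.13 ± 0.24 SE, edgeR adjusted p = 2.78e-05).

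Genes that bind and activate fatty acids went both ways, with 8 of 29 higher and 6 lower. acsbg2, an acyl-CoA synthetase, averaged 211 ± 25.1 CPM in knockouts and 94.8 ± 3.71 CPM in siblings (log2 fold change 1.15 ± 0.10 SE, edgeR adjusted p = 1.53e-06). acsl5, another, averaged 1.95 ± 0.371 CPM in knockouts and 10.4 ± 2.47 CPM in siblings (log2 fold change -2.41 ± 0.31 SE, edgeR adjusted p = 9.42e-05). Of 18 lipid droplet genes 3 were lower, 1, plin2, was higher (none without knockout replicate 1 or sibling replicate 3) and 14 were not called. Among the lower ones cideb and cidec, which govern droplet fusion and lipoprotein lipidation, averaged 0.0917 ± 0.113 CPM in knockouts and 2.23 ± 0.159 CPM in siblings for cideb. For cidec the averages were 0.0647 ± 0.05201 CPM in knockouts and 1.79 ± 0.372 CPM in siblings. The log2 fold change of cideb was -4.54 and -5.53 without knockout replicate 1. Of 37 genes of glycerolipid and phospholipid synthesis 5 were lower (2 without knockout replicate 3 or 4 or without sibling replicate 3, and 3 without knockout replicate 1 or sibling replicate 4) and 1 higher. The riser was lpin1, a phosphatidate phosphatase and coregulator, with 15.7, 17.3, 15.5 and 11.3 CPM in knockouts, against 8.97, 8.87, 7.08 and 7.65 CPM in siblings (log2 fold change 0.88 ± 0.14 SE, edgeR adjusted p = 0.000714). gpx4a, which removes lipid peroxides, had 41.02, 64.3, 95.4 and 68.7 CPM in knockouts, against 249.9, 341, 338 and 344 CPM in siblings (log2 fold change -2.24 ± 0.30 SE, edgeR adjusted p = 0.000132).

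Insulin and energy sensing genes that were called were mostly higher. Of 27 genes of the insulin and insulin-like growth factor axis 6 were higher and 1 lower (3 without knockout replicate 1), and of 53 FoxO, TORC1 and energy sensor genes 12 were higher and 3 lower. igfbp1b, a secreted protein that binds insulin-like growth factors, had 6.31, 13.5, 12.03 and 10.9 CPM in knockouts, against 0.648, 0.0553, 0.388 and 0.296 CPM in siblings (log2 fold change 4.92 ± 0.56 SE, edgeR adjusted p = 2.54e-05). Its paralogue igfbp1a had 75.3, 27.9, 26.7 and 38.6 CPM in knockouts, against 10.19, 11.4, 11.6 and 13.96 CPM in siblings (log2 fold change 1.84 ± 0.26 SE, edgeR adjusted p = 0.000184), with knockout replicate 1 the highest. igfbp2a was the 1 that fell, at 20.2 ± 4.94 CPM in knockouts and 38.98 ± 4.22 CPM in siblings (log2 fold change -0.95 ± 0.16 SE, edgeR adjusted p = 0.000994). irs2a, an adaptor of the insulin receptor, averaged 26.3 ± 1.74 CPM in knockouts and 13.1 ± 1.78 CPM in siblings (log2 fold change 1.01 ± 0.16 SE, edgeR adjusted p = 0.000613).

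txnipa, an arrestin-like gene that limits glucose uptake, had 589.5, 386, 390.0 and 569.5 CPM in knockouts, against 154, 138, 135 and 253 CPM in siblings (log2 fold change 1.51 ± 0.21 SE, edgeR adjusted p = 0.000191). arrdc2 and arrdc3b, of the same arrestin family, averaged 33.00 ± 7.47 CPM in knockouts and 9.96 ± 3.09 CPM in siblings for arrdc2 (edgeR adjusted p = 8.2e-05). For arrdc3b the averages were 71.4 ± 26.5 CPM in knockouts and 28.5 ± 3.25 CPM in siblings (edgeR adjusted p = 0.00017). eif4ebp3l, a repressor of cap-dependent translation, had 35.4, 42.3, 48.00 and 36.9 CPM in knockouts, against 16.6, 17.02, 18.3 and 21.1 CPM in siblings (log2 fold change 1.15 ± 0.11 SE, edgeR adjusted p = 3.42e-06). klf10, a zinc finger factor, averaged 2.901 ± 2.69 CPM in knockouts and 0.153 ± 0.0939 CPM in siblings. Its log2 fold change of 4.22 was called by edgeR (edgeR adjusted p = 0.00341) and not by limma-voom (0.144).

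Part of the list of the integrated stress response rose, while chaperones of the endoplasmic reticulum mostly did not. Of 32 genes of the first list 15 were higher, 2 (fgf21 and vldlr) lower and 15 not called. Those not called included atf4a, atf4b, asns, psat1, phgdh, mthfd2, slc7a11, stc2a and ddit4. ddit3, a transcription factor induced by that response, had 90.5, 109, 82.1 and 84.1 CPM in knockouts, against 23.7, 21.9, 21.9 and 27.6 CPM in siblings, the smallest p among rises (log2 fold change 1.94 ± 0.12 SE, edgeR adjusted p = 2.75e-08). ppp1r15a, which restores translation, averaged 42.4 ± 8.79 CPM in knockouts and 20.7 ± 1.601 CPM in siblings (log2 fold change 1.03 ± 0.11 SE, edgeR adjusted p = 1.7e-05). nupr1b, a stress-induced cofactor, averaged 41.00 ± 9.02 CPM in knockouts and 16.6 ± 2.12 CPM in siblings (log2 fold change 1.31 ± 0.16 SE, edgeR adjusted p = 6.79e-05). Of 46 chaperone and secretion genes 8 were lower and 1, herpud1, higher. The lower count was 4 without knockout replicate 3, sibling replicate 2 or sibling replicate 3 and 5 without knockout replicate 4. hsp90b1 and dnajb11, both lumenal chaperones, averaged 217 ± 14.2 CPM in knockouts and 330.3 ± 50.6 CPM in siblings for hsp90b1 (edgeR adjusted p = 0.00767). For dnajb11 the averages were 54.2 ± 3.61 CPM in knockouts and 85.3 ± 11.9 CPM in siblings (edgeR adjusted p = 0.00556).

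Of 31 p53 and apoptosis genes 11 were higher, none lower and 20 not called, beside 4.76% higher among all genes tested. Higher were bbc3, cdkn1a, pmaip1 and sesn1 among others, with isg15 and sesn2, which are also on other lists. Not called were mdm2, ccng1, phlda3, zmat3, baxa, rrm2b, fas and tp53inp1 among others. The higher count was 6 without knockout replicate 1 or sibling replicate 1 and 7 without sibling replicate 2 or 4. bbc3, a death-promoting target of p53, averaged 7.71 ± 0.878 CPM in knockouts and 3.75 ± 0.632 CPM in siblings (log2 fold change 1.04 ± 0.19 SE, edgeR adjusted p = 0.00227). sesn1, which restrains TORC1, averaged 74.96 ± 5.099 CPM in knockouts and 38.8 ± 1.03 CPM in siblings (log2 fold change 0.95 ± 0.20 SE, edgeR adjusted p = 0.00491). Lysosomal genes also leaned upward, with 12 of 56 higher and 2 lower. ctsla, cathepsin L, had 928, 1926, 2236 and 1318 CPM in knockouts, against 536, 733, 612 and 1019 CPM in siblings (log2 fold change 1.14 ± 0.26 SE, edgeR adjusted p = 0.00955), with sibling replicate 4 above knockout replicate 1. lgmn, legumain, averaged 139.9 ± 16.9 CPM in knockouts and 89.3 ± 5.87 CPM in siblings (log2 fold change 0.65 ± 0.10 SE, edgeR adjusted p = 0.000499). lipf, an acid lipase, fell to 20.6 ± 1.35 CPM in knockouts and 71.5 ± 13.2 CPM in siblings (log2 fold change -1.79 ± 0.16 SE, edgeR adjusted p = 2.14e-06).

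The translation machinery rose by small steps at high abundance. The 81 cytosolic ribosomal protein genes took 6.76% ± 0.0608 of counts in knockouts and 5.21% ± 0.213 in siblings (SD, n = 4 each; exact permutation p = 0.0286). Of these genes 23 were called higher (28.4%, beside 4.76% of all genes tested) and none lower, with a median log2 fold change of 0.33. The groups did not overlap for 66 of 81, beside 19.2% of all genes tested. Above an average log2 CPM of 7, 17.5% of all genes were called, higher and lower together. The count of 23 became 61 in a fit of the 48 hpf libraries alone, 14 without knockout replicate 1 or 3, 15 without knockout replicate 2 or sibling replicate 4, 13 without knockout replicate 4, 9 without sibling replicate 1 and 12 without sibling replicate 3. rps12 had 451, 445, 478 and 471 CPM in knockouts, against 312, 359, 335 and 354 CPM in siblings (log2 fold change 0.44 ± 0.08 SE, edgeR adjusted p = 0.00204). rpl4 averaged 1855 ± 64.03 CPM in knockouts and 1475 ± 59.8 CPM in siblings (log2 fold change 0.33 ± 0.07 SE, edgeR adjusted p = 0.00433).

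Elongation factors were among the genes with the largest gains of CPM. eef1a1l1 had 9659, 9911, 11380 and 10190 CPM in knockouts, against 5971, 6987, 6676 and 7423 CPM in siblings, the largest gain of CPM of any called gene (log2 fold change 0.60 ± 0.09 SE, edgeR adjusted p = 0.000324). eef2b averaged 4271 ± 415 CPM in knockouts and 2889 ± 255 CPM in siblings (log2 fold change 0.56 ± 0.12 SE, edgeR adjusted p = 0.00448). tpt1, translationally controlled tumour protein, averaged 2798 ± 71.5 CPM in knockouts and 2047 ± 113 CPM in siblings (log2 fold change 0.45 ± 0.07 SE, edgeR adjusted p = 0.000499). Of 52 translation factors 9 were higher and 1 lower. The higher count was 4 without sibling replicate 1, 5 without sibling replicate 3 and 16 in a fit of the 48 hpf libraries alone. The chaperones hsp90ab1 and hspa8 gained as well (log2 fold change 0.42 ± 0.10 SE, edgeR adjusted p = 0.00994, and log2 fold change 0.50 ± 0.14 SE, edgeR adjusted p = 0.0335), but the call of hsp90ab1 was lost without sibling replicate 1 (0.33, adjusted p = 0.0602) and that of hspa8 without each of knockout replicates 3 and 4 and sibling replicates 1, 2 and 3 (adjusted p from 0.0503 to 0.129). actb2, cytoplasmic actin, averaged 4603 ± 236 CPM in knockouts and 3419 ± 238 CPM in siblings (log2 fold change 0.43 ± 0.10 SE, edgeR adjusted p = 0.0106).

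Few genes of ribosome building or cell division were called. On the list of 59 ribosome biogenesis genes 5 were higher, and 2 of them stood out: ddx21, a nucleolar helicase, had 155, 140.1, 162 and 158 CPM in knockouts, against 58.3, 68.5, 68.1 and 72.6 CPM in siblings (log2 fold change 1.199 ± 0.10 SE, edgeR adjusted p = 7.49e-07). mycn, a growth-promoting transcription factor, averaged 92.4 ± 5.995 CPM in knockouts and 59.6 ± 4.12 CPM in siblings (log2 fold change 0.63 ± 0.08 SE, edgeR adjusted p = 5.23e-05). Of 67 genes of DNA replication and mitosis 3 were higher (4.48% of the list) and none lower. The higher count was 6 without knockout replicate 1 and 1 without knockout replicate 4 or sibling replicate 3. gtf3ab, a factor for ribosomal 5S RNA transcription, had 4.97, 7.38, 5.92 and 9.196 CPM in knockouts, against 0.207, 0.111, 0.0517 and 0.162 CPM in siblings (log2 fold change 5.66 ± 0.55 SE, edgeR adjusted p = 4.84e-06). arf4b, a small GTPase of the Golgi, had 11.6, 40.1, 24.4 and 8.400 CPM in knockouts, against 0.285, 0.166, 0.439 and 0.269 CPM in siblings (log2 fold change 6.16 ± 0.53 SE, edgeR adjusted p = 1.48e-06). Both were among the largest rises, and the siblings held under 0.5 CPM of either.

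Transcripts of the mitochondrial genome fell together. They took 2.73% ± 0.314 of counts in knockouts and 3.46% ± 0.101 in siblings (SD, n = 4 each; exact permutation p = 0.0286), and 8 of 12 were called lower and none higher. This count was 5 without knockout replicate 2 and 4 without knockout replicate 3 or sibling replicate 2. mt-nd6, a complex I subunit, had 299.5, 299.5, 201 and 269 CPM in knockouts, against 508, 488, 513 and 477 CPM in siblings (log2 fold change -0.89 ± 0.12 SE, edgeR adjusted p = 8.67e-05). mt-nd2 averaged 1575 ± 169 CPM in knockouts and 2395 ± 179 CPM in siblings (log2 fold change -0.60 ± 0.11 SE, edgeR adjusted p = 0.00149). mt-co2, of cytochrome c oxidase, averaged 3840 ± 643 CPM in knockouts and 5081 ± 227 CPM in siblings (log2 fold change -0.40 ± 0.10 SE, edgeR adjusted p = 0.0193), a call lost without knockout replicate 3, knockout replicate 4 or sibling replicate 2 (adjusted p from 0.0611 to 0.0682). Of 76 nuclear genes of the respiratory chain 5 were lower and none higher. These are 6.58% of the list, close to the 5.28% called lower among all genes tested. The count of lower genes was 2 without knockout replicate 3 or 4 or sibling replicate 2 or 3, 9 with DESeq2 and 22 in a fit of the 48 hpf libraries alone. The groups did not overlap, either way, for 36 of the 76 genes, beside 19.2% of all genes tested. The median log2 fold change of the list was -0.238, beside 0.001 over all genes.

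**Figure D3:**
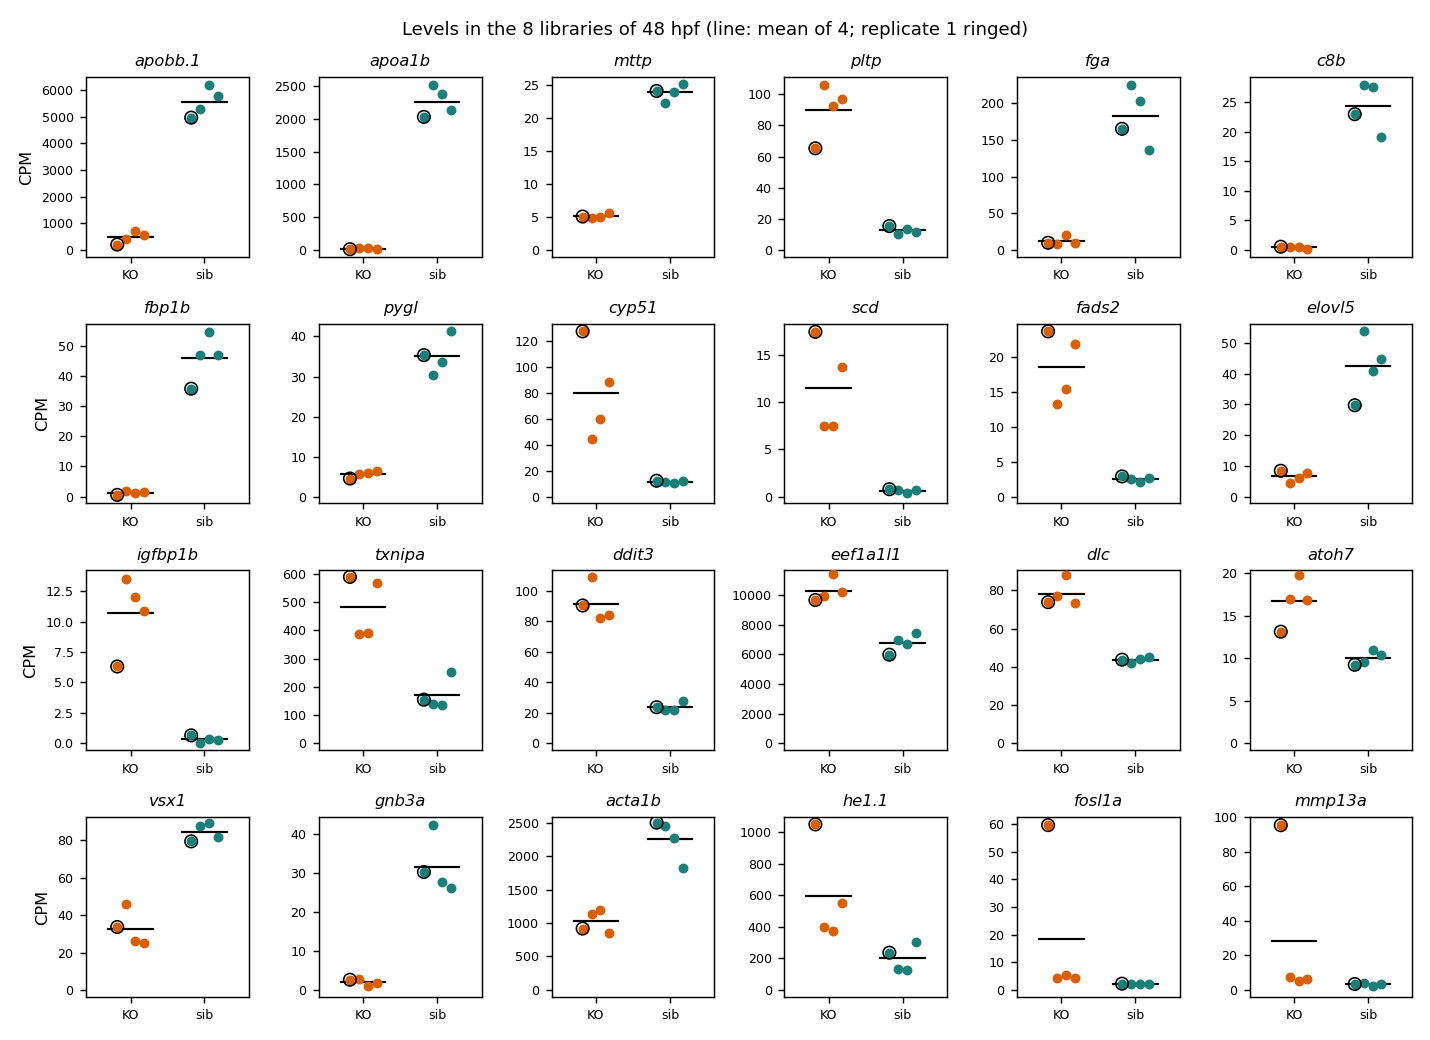
Each panel shows the CPM of 1 gene in the 8 libraries of 48 hpf on a linear axis, the 4 knockouts on the left and the 4 siblings on the right, with a line at each mean and a ring around replicate 1 of each group. In pygl, dlc and vsx1 the libraries of a group lie close together, while in fosl1a and mmp13a knockout replicate 1 (59.7 and 95.4 CPM) lies far above the other 3 knockouts, which lie above the siblings.

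All called genes of Notch signalling were higher. In which tissue of the embryo they rose was not tested. Of 33 genes of neural progenitors and glia 6 were higher (3 without sibling replicate 2), 1 was lower and 26 were not called. Of 32 genes of Notch signalling and Her factors, which hold neural progenitors back from differentiating, 15 were higher and none lower (9 without sibling replicate 2). dlc, a Notch ligand, had 73.9, 77.3, 88.1 and 73.4 CPM in knockouts, against 43.8, 42.1, 43.97 and 45.3 CPM in siblings (log2 fold change 0.84 ± 0.09 SE, edgeR adjusted p = 1.79e-05). notch1a, the receptor, had 165, 171, 228 and 196 CPM in knockouts, against 129, 111, 115 and 104 CPM in siblings (log2 fold change 0.73 ± 0.10 SE, edgeR adjusted p = 0.000156). The ligands dla and dld averaged 167 ± 11.3 CPM in knockouts and 105 ± 3.09 CPM in siblings for dla (edgeR adjusted p = 3.86e-05). For dld the averages were 82.5 ± 8.88 CPM in knockouts and 50.6 ± 6.62 CPM in siblings (edgeR adjusted p = 0.000132). ascl1a and neurog1, proneural factors that set progenitors on the way to neurons, averaged 25.7 ± 1.83 CPM in knockouts and 15.5 ± 0.778 CPM in siblings for ascl1a (edgeR adjusted p = 1.21e-05). For neurog1 the averages were 30.2 ± 1.37 CPM in knockouts and 19.2 ± 0.889 CPM in siblings (edgeR adjusted p = 0.000186). The groups did not overlap for any of these 6 genes.

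Of 57 genes of neurons of the central nervous system 11 were lower and 5 higher. The lower count was 5 without knockout replicate 3 or 4 or sibling replicate 2 or 3, and the higher count 3 without knockout replicate 4 or sibling replicate 2 or 3. The 5 that were higher were the proneural ascl1a, ascl1b, neurog1 and atoh7 and the early factor ebf2. neurod6b, a factor of differentiating forebrain neurons, had 12.1, 12.5, 10.01 and 7.72 CPM in knockouts, against 23.3, 25.8, 21.5 and 19.5 CPM in siblings (log2 fold change -1.09 ± 0.16 SE, edgeR adjusted p = 0.000328). slc17a7a, a vesicular glutamate transporter, had 3.900, 4.43, 4.56 and 2.34 CPM in knockouts, against 8.99, 13.4, 12.5 and 15.6 CPM in siblings (log2 fold change -1.73 ± 0.26 SE, edgeR adjusted p = 0.000418). elavl3, a marker of neurons as a whole, averaged 612 CPM in knockouts and 752 CPM in siblings before scaling.

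On the list of retinal genes more were lower than higher. The retina list took 0.0849% ± 0.00773 of counts in knockouts and 0.1204% ± 0.00564 in siblings (SD, n = 4 each; exact permutation p = 0.0286), and of 59 genes 17 were lower and 3 higher. Among the higher genes, rx1 of retinal progenitors averaged 16.6 ± 2.996 CPM in knockouts and 10.3 ± 1.17 CPM in siblings (edgeR adjusted p = 0.000952). For atoh7 of newborn ganglion cells the averages were 16.7 ± 2.74 CPM in knockouts and 10.04 ± 0.799 CPM in siblings (edgeR adjusted p = 0.0262). The call of atoh7 was lost without knockout replicate 3 or 4 or any sibling replicate (adjusted p from 0.0501 to 0.0887). vsx1, of bipolar cells, had 33.6, 45.9, 25.9 and 25.2 CPM in knockouts, against 79.4, 87.6, 89.2 and 81.5 CPM in siblings (log2 fold change -1.37 ± 0.17 SE, edgeR adjusted p = 6.24e-05). crx, the photoreceptor factor, had 33.1, 47.00, 25.1 and 22.8 CPM in knockouts, against 90.98, 103, 92.5 and 68.5 CPM in siblings (log2 fold change -1.47 ± 0.25 SE, edgeR adjusted p = 0.00094).

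gnb3a, a G protein beta subunit gene, fell furthest on the retina list. It had 2.600, 2.804, 0.943 and 1.64 CPM in knockouts, against 30.2, 42.1, 27.5 and 26.1 CPM in siblings (log2 fold change -3.98 ± 0.32 SE, edgeR adjusted p = 7.49e-07). otx5, a marker of pineal and retina, averaged 41.1 CPM in knockouts and 100 CPM in siblings before scaling. In which of these tissues such genes fell was not tested. rcvrn2, a recoverin that tunes the light response, had 4.92, 6.85, 3.68 and 4.63 CPM in knockouts, against 13.7, 18.4, 16.2 and 13.4 CPM in siblings (log2 fold change -1.62 ± 0.23 SE, edgeR adjusted p = 0.000178). rlbp1a, a retinaldehyde binding protein of the support cells, averaged 3.82 ± 0.682 CPM in knockouts and 8.75 ± 0.632 CPM in siblings (log2 fold change -1.19 ± 0.16 SE, edgeR adjusted p = 0.000127). elovl4b, an elongase of very long fatty acids found in the retina, averaged 3.600 ± 0.709 CPM in knockouts and 15.7 ± 2.504 CPM in siblings (log2 fold change -2.12 ± 0.18 SE, edgeR adjusted p = 1.09e-06). The lens list took 0.715% ± 0.0921 of counts in knockouts and 0.889% ± 0.0365 in siblings (SD, n = 4 each, exact permutation p = 0.0286). Its median log2 fold change was -0.332. Of 59 lens genes 6, among them 5 gamma-crystallins, were lower. With the replicate number as a block the count of lower lens genes was 19, in a fit of the 48 hpf libraries alone 22 and with limma-voom 14. Without knockout replicate 2 it was 9, and without any other 1 library 1 to 3. Gamma-crystallins are near-identical copies and their counts are uncertain.

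Of 30 ear and lateral line genes 5 were lower (2 without sibling replicate 4, and 3 without knockout replicate 2, 3 or 4 or sibling replicate 2 or 3) and 2 higher. The 2 were atoh1a and atoh1b, which start the hair cell fate and also mark hindbrain progenitors, at 8.96 ± 0.495 CPM in knockouts and 4.75 ± 0.416 CPM in siblings for atoh1a (edgeR adjusted p = 0.000139). For atoh1b the averages were 18.5 ± 1.18 CPM in knockouts and 10.22 ± 0.659 CPM in siblings (edgeR adjusted p = 8.87e-06). pou4f3, a factor of differentiated hair cells, had 1.72, 1.87, 0.808 and 0.866 CPM in knockouts, against 4.74, 6.08, 4.96 and 3.13 CPM in siblings (log2 fold change -1.84 ± 0.43 SE, edgeR adjusted p = 0.0114). pvalb9, a parvalbumin that is also on the list of yolk syncytial layer markers, had 11.8, 14.6, 21.8 and 11.3 CPM in knockouts, against 73.5, 90.9, 91.01 and 97.1 CPM in siblings (log2 fold change -2.57 ± 0.31 SE, edgeR adjusted p = 4.41e-05).

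Skeletal muscle took 9.50% ± 0.487 of counts in knockouts and 10.7% ± 0.474 in siblings (SD, n = 4 each, exact permutation p = 0.0286). Of its 64 genes 8 were lower and 2 higher. These are 15.6% of the list, beside 10.04% of all genes tested and 17.5% of genes above an average log2 CPM of 7. The lower count was 5 without knockout replicate 3 or sibling replicate 2, and 15 with DESeq2 or in a fit of the 48 hpf libraries alone. acta1b, a skeletal actin, had 917, 1142, 1199 and 858 CPM in knockouts, against 2500, 2454, 2270 and 1819 CPM in siblings (log2 fold change -1.14 ± 0.12 SE, edgeR adjusted p = 1.7e-05). Fast myosin heavy chain genes myhz1.2 and myhz1.3, near-identical copies, averaged 3499 ± 309 CPM in knockouts and 5245 ± 304 CPM in siblings for myhz1.2 (edgeR adjusted p = 0.000871). For myhz1.3 the averages were 2520 ± 297 CPM in knockouts and 3884 ± 309 CPM in siblings (edgeR adjusted p = 0.00308). myhz1.1 had the second largest loss of CPM of a called gene and the weakest call among those named (log2 fold change -0.30 ± 0.09 SE, edgeR adjusted p = 0.045). The call was lost with the replicate block (adjusted p = 0.0601), with upper quartile scaling (0.0606), without the filter on low counts (0.0819) and without any single library but knockout replicate 1 (0.0763 to 0.136). ckmt2a, a mitochondrial creatine kinase, averaged 0.639 ± 0.405 CPM in knockouts and 5.36 ± 1.39 CPM in siblings (log2 fold change -3.06 ± 0.58 SE, edgeR adjusted p = 0.00268).

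The sarcomere gene tcap, telethonin, rose. It had 62.95, 12.6, 10.7 and 11.5 CPM in knockouts, against 1.503, 0.442, 0.181 and 0.431 CPM in siblings (log2 fold change 5.24 ± 0.81 SE, edgeR adjusted p = 0.000484), and knockout replicate 1 held about 5 times the level of the other knockouts. The log2 fold change was 4.14 without that library and 6.08 without sibling replicate 1. None of 27 heart genes and none of 33 erythroid genes was called by edgeR in the model reported, with 7 and 4 of them at an unadjusted p below 0.05. DESeq2 called 3 heart genes and 1 erythroid gene, and limma-voom no heart gene and 1 erythroid gene. With the replicate block edgeR called 1 heart gene lower, and 1 erythroid gene higher and 2 lower. Without knockout replicate 1 it called 1 heart gene higher and 1 erythroid gene lower, and without knockout replicate 2 it called 1 heart gene lower.

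Cartilage and collagen matrix genes fell in 12 of 58 cases and rose in none (7 without sibling replicate 3). acana, aggrecan, had 8.24, 9.83, 6.49 and 7.51 CPM in knockouts, against 14.8, 15.3, 18.3 and 12.8 CPM in siblings (log2 fold change -0.93 ± 0.17 SE, edgeR adjusted p = 0.00196). matn1, matrilin of cartilage, had 0.0929, 0.719, 0.135 and 0.0234 CPM in knockouts, against 2.203, 5.61, 4.34 and 1.72 CPM in siblings. Its log2 fold change was -3.83 (edgeR adjusted p = 0.00546) and -5.31 without knockout replicate 2. Summed over the list the share of counts was 1.45% ± 0.0526 in knockouts and 1.62% ± 0.109 in siblings (SD, n = 4 each, exact permutation p = 0.0571). It was lower in the knockout in all 4 same-numbered pairs, but the labels do not state that these are pairs. The paired difference was not tested.

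Epidermal genes were higher. The list took 2.93% ± 0.0684 of counts in knockouts and 2.37% ± 0.0585 in siblings (SD, n = 4 each; exact permutation p = 0.0286), with 12 of 47 genes higher and 1 lower. With the 10 most abundant genes left out, krt4 among them, the knockout minus sibling share was 0.269 percentage points. The higher count was 6 without knockout replicate 1, sibling replicate 1 or sibling replicate 3, 7 without knockout replicate 4 and 5 without sibling replicate 2. krt18a.1 and krt8, keratins of simple and surface epithelia, averaged 484 ± 107 CPM in knockouts and 213 ± 7.25 CPM in siblings for krt18a.1 (edgeR adjusted p = 2.97e-05). For krt8 the averages were 1063 ± 49.7 CPM in knockouts and 586 ± 59.8 CPM in siblings (edgeR adjusted p = 8.56e-05). krt4, a periderm keratin, had 14680, 14640, 14930 and 15150 CPM in knockouts, against 11860, 11910, 11430 and 12470 CPM in siblings (log2 fold change 0.32 ± 0.08 SE, edgeR adjusted p = 0.0211). Its call was lost without knockout replicate 1 or 4 or sibling replicate 1, 2 or 3 (adjusted p from 0.0562 to 0.0809), although no library overlapped.

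Some genes of the hatching gland, whose cells release the enzymes that dissolve the egg envelope, were higher in knockouts. he1.1, the hatching enzyme, had 1048, 397, 376 and 549 CPM in knockouts, against 236, 132, 129 and 303 CPM in siblings (log2 fold change 1.57 ± 0.30 SE, edgeR adjusted p = 0.00268). The list took 0.125% ± 0.0446 of counts in knockouts, highest in replicate 1 at 0.191%, and 0.0683% ± 0.00961 in siblings (SD, n = 4 each; exact permutation p = 0.0286). Before scaling he1.1 alone averaged 613 CPM in knockouts and 203 CPM in siblings, a large part of this share and of its rise. Of 15 genes 5 were higher (3 without knockout replicate 1 or 4 or sibling replicate 1 or 2, and 2 without sibling replicate 3) and 1 lower. The other 9 were not called, and the median log2 fold change of the list was 0.218. ctslb, a cathepsin L gene of the gland, had 34.7, 8.44, 7.81 and 6.79 CPM in knockouts, against 2.696, 2.71, 2.02 and 5.15 CPM in siblings, with a log2 fold change of 2.2 (edgeR adjusted p = 0.00435) and 1.26 without knockout replicate 1.

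Of 46 leukocyte genes 12 were higher and none lower. The count was 7 without knockout replicate 1, and likewise without sibling replicate 4, with the replicate block and with limma-voom. il1b, the inflammatory cytokine, had 23.5, 0.288, 0.359 and 0.0936 CPM in knockouts, against 0.104, 0, 0.362 and 0.0539 CPM in siblings, so a single library carried it: its log2 fold change of 5.49 (edgeR adjusted p = 0.0234) was 0.87 without that library (adjusted p = 0.650), and the call was also lost with the replicate block (0.109), with limma-voom (0.386), with the 48 hpf libraries alone (0.0676) and without sibling replicate 1, 2 or 4 (0.0655 to 0.0742). Without sibling replicate 3 the log2 fold change was 6.74. mmp9, a gelatinase of leukocytes and wounds, had 175, 13.3, 15.98 and 20.7 CPM in knockouts, against 12.1, 9.37, 9.77 and 13.5 CPM in siblings, and its log2 fold change of 2.33 (edgeR adjusted p = 0.0304) was 0.54 without knockout replicate 1 (adjusted p = 0.316). It was also not called without any 1 sibling library (0.0605 to 0.0915), with the replicate block (0.109), with the 48 hpf libraries alone (0.0717) or with limma-voom (0.189). Summed over the list the leukocyte share was 0.127% ± 0.0289 in knockouts and 0.0987% ± 0.0104 in siblings (SD, n = 4 each, exact permutation p = 0.0857). It was higher in the knockout in all 4 same-numbered pairs, but the labels do not state that these are pairs. The paired difference was not tested. mpx, which marks neutrophils, averaged 49.4 CPM in knockouts and 33.9 CPM in siblings before scaling. The part of leukocyte number in these results was not tested.

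Knockout replicate 1 was the highest library in several of the largest rises outside that list. mmp13a, a collagenase, had 95.4, 7.33, 5.41 and 6.11 CPM in knockouts, against 3.42, 4.09, 2.38 and 3.23 CPM in siblings. The log2 fold change of 3.12 (edgeR adjusted p = 0.0129) was 0.91 without replicate 1 (adjusted p = 0.0515), 1.85 with the replicate block (0.0526) and 1.94 with limma-voom (0.161). fosl1a, an AP-1 subunit, had 59.7, 4.24, 5.57 and 4.31 CPM in knockouts, against 2.26, 2.05, 2.02 and 2.24 CPM in siblings, with a log2 fold change of 3.11 (edgeR adjusted p = 0.0103), 1.103 without replicate 1 (adjusted p = 0.0307) and 2.04 with limma-voom (0.136). cbx7a, a Polycomb gene, had 69.8, 2.06, 5.16 and 10.01 CPM in knockouts, against 1.58, 0.995, 0.982 and 1.56 CPM in siblings, with a log2 fold change of 4.08 (edgeR adjusted p = 0.0242) that was not called without knockout replicate 1 (2.13, adjusted p = 0.153), without any sibling replicate (0.0572 to 0.0759) or with limma-voom (0.249).

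Other immune genes did not rest on that library for their call. cxcl18b, a chemokine, had 26.00, 3.04, 3.32 and 7.07 CPM in knockouts, against 1.01, 1.08, 0.982 and 1.08 CPM in siblings (log2 fold change 3.25 ± 0.58 SE, edgeR adjusted p = 0.00173; log2 fold change 2.07 without knockout replicate 1). socs3a, a brake on cytokine signalling, had 36.2, 6.38, 11.6 and 6.65 CPM in knockouts, against 3.94, 1.66, 3.44 and 1.19 CPM in siblings (log2 fold change 2.57 ± 0.56 SE, edgeR adjusted p = 0.00704; 1.65 without it). nfkbiaa, an inhibitor of NF-kappaB which NF-kappaB itself induces, averaged 12.5 ± 2.74 CPM in knockouts and 5.65 ± 0.769 CPM in siblings (log2 fold change 1.15 ± 0.16 SE, edgeR adjusted p = 0.000174). tnfrsf9a, a receptor of the tumour necrosis factor family, had 15.3, 14.6, 10.1 and 20.4 CPM in knockouts, against 3.91, 3.23, 3.102 and 3.99 CPM in siblings (log2 fold change 2.08 ± 0.20 SE, edgeR adjusted p = 3.41e-06).

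Of 30 interferon response genes 8 were higher and none lower (4 without knockout replicate 1 or 4, 5 without sibling replicate 2 or 4). b2m, the light chain of class I histocompatibility molecules, had 5.53, 6.73, 7.25 and 7.91 CPM in knockouts, against 2.099, 1.99, 1.73 and 2.83 CPM in siblings (log2 fold change 1.66 ± 0.19 SE, edgeR adjusted p = 2.79e-05). irf1b, an interferon regulatory factor, had 12.5, 2.06, 3.88 and 6.93 CPM in knockouts, against 1.296, 0.774, 0.3102 and 0.243 CPM in siblings (log2 fold change 3.27 ± 0.68 SE, edgeR adjusted p = 0.00511; log2 fold change 2.67 without knockout replicate 1). isg15, a ubiquitin-like modifier, had 4.83, 2.06, 2.24 and 4.12 CPM in knockouts, against 0.207, 0.0553, 0.207 and 0.862 CPM in siblings (log2 fold change 3.304 ± 0.68 SE, edgeR adjusted p = 0.00478; 4.37 without sibling replicate 4). Of 47 vessel genes 7 were higher and 1 lower (17% of the list, beside 10.04% of all genes tested). The higher count was 3 without knockout replicate 3 or sibling replicate 2 or 4. It was 4 without knockout replicate 4 or sibling replicate 1, and 2 without sibling replicate 3. Among these genes cxcr4a, a chemokine receptor, averaged 6.73 ± 1.11 CPM in knockouts and 3.88 ± 0.4202 CPM in siblings (log2 fold change 0.79 ± 0.16 SE, edgeR adjusted p = 0.00372).

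**Figure D4:**
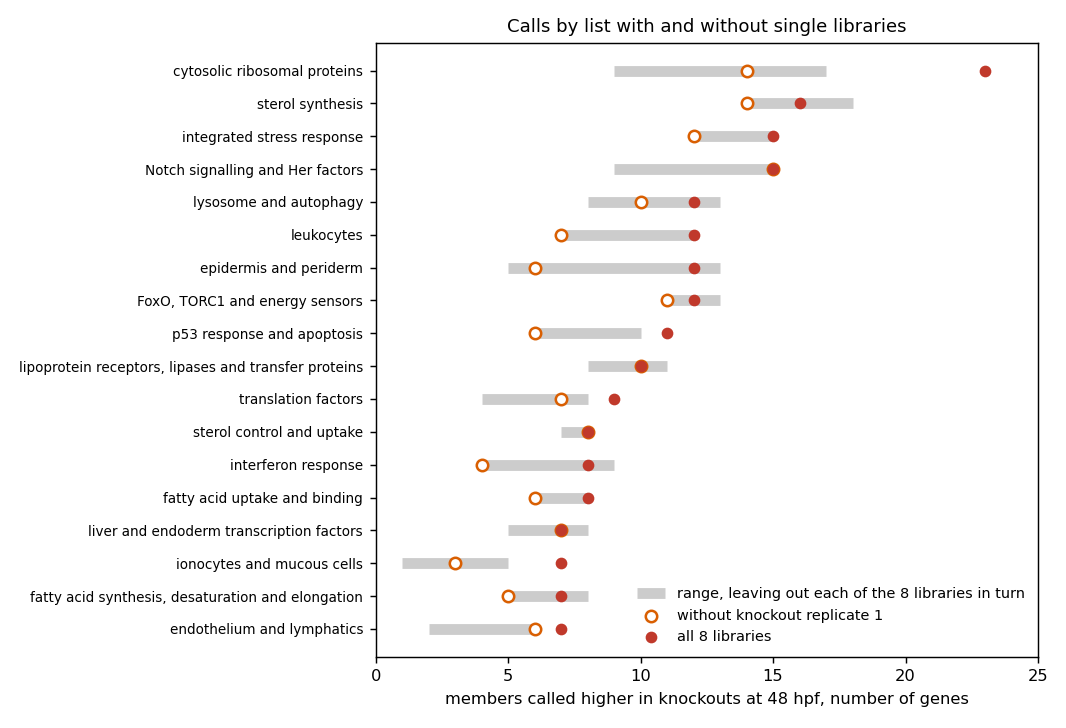
For each gene list with at least 7 members called higher at 48 hpf, filled circles give the number called with all 8 libraries, open circles that without knockout replicate 1, and grey bars the range over leaving out each of the 8 libraries in turn. Leukocyte genes number 12 with all libraries and 7 without knockout replicate 1, while sterol synthesis stays between 14 and 18.

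Hormone genes gave 1 further group. Of 29 thyroid, adrenal and steroid genes 5 were higher (3 without sibling replicate 2 or 3) and none lower. dio3b, a deiodinase that inactivates thyroid hormone, had 8.13, 12.5, 16.7 and 12.7 CPM in knockouts, against 3.45, 2.96, 3.54 and 4.04 CPM in siblings (log2 fold change 1.84 ± 0.20 SE, edgeR adjusted p = 1.53e-05). klf9, which thyroid hormone and glucocorticoids induce, had 3.16, 10.8, 9.34 and 6.51 CPM in knockouts, against 1.71, 3.18, 2.74 and 1.99 CPM in siblings (log2 fold change 1.63 ± 0.38 SE, edgeR adjusted p = 0.00973), with knockout replicate 1 below sibling replicate 2.

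Most genes called at 34 hpf had the same sign at 48 hpf, and a difference between the stages was called for few genes, which does not show that the others did not differ. The stages share no library. At 34 hpf 985 genes were higher (4.09%) and 1255 lower (5.21%), 9.30% of those tested. Of these, 452 genes were higher at both stages (39.4% of those at 48 hpf and 45.9% of those at 34 hpf) and 625 lower at both (49.2% and 49.8%). Of the genes higher at 34 hpf 926 had the same sign at 48 hpf, and of the lower ones 1209. Their median log2 fold changes were 0.40 at 48 hpf and 0.58 at 34 hpf, and -0.41 and -0.63. These genes were selected by their call at 34 hpf, which favours larger values at that stage. The medians therefore cannot show whether the effect weakened. Opposite calls were made for 6 genes that were higher at 48 and lower at 34 hpf and for 3 the other way. The difference itself was called for 49 genes (0.203%), with 21 more positive at 48 hpf (0.0872%) and 28 more negative (0.116%). DESeq2 called 80 and 97, and leaving out 1 library of 48 hpf gave 13 to 29 and 10 to 39. At 34 hpf knockout replicate 4 stood furthest from its group, with 98 of 17357 genes more than 4-fold from the other 3.

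Several genes whose knockout effect was more negative at 48 hpf belong to the retina, whose cells differentiate between these stages. gnb3a changed by -3.98 on the log2 scale at 48 hpf and -0.03 at 34 hpf, a difference of -3.94 (adjusted p = 0.00545; 0.134 with limma-voom). bhlhe23, a factor of retinal interneurons in mouse, had 2.69, 3.07, 1.98 and 1.497 CPM in knockouts, against 9.82, 12.5, 10.9 and 7.84 CPM in siblings at 48 hpf and a difference of -2.26 (0.00445). ccdc88aa, a girdin family gene, had 3.74, 3.09, 2.63 and 2.01 CPM in knockouts, against 11.95, 17.6, 14.8 and 13.1 CPM in siblings and a difference of -2.701 (0.00286). Levels of gnb3a, bhlhe23 and ccdc88aa were low in both genotypes at 34 hpf. They averaged 0.2966, 0.9374 and 0.587 CPM in knockouts and 0.2965, 0.87 and 0.445 CPM in siblings. Such levels leave little room to see a fall at that stage. rcvrn2, rlbp1a and elovl4b differed by -1.82, -1.17 and -1.71. The vesicle protein genes syt5b and scamp5b were lower in knockouts at 48 hpf (log2 fold change -0.97 and -1.32), with 1.43 and 0.83 at 34 hpf. Their levels at 34 hpf were low, at 3.853 and 0.7783 CPM in knockouts and 1.426 and 0.4392 CPM in siblings. The difference of scamp5b was not called without knockout replicate 3 or sibling replicate 1 or 2 (adjusted p from 0.0542 to 0.0665) or with limma-voom (0.0610).

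Genes whose effect was more positive at 48 hpf were mixed. atoh7 had a log2 fold change of 0.73 at 48 hpf and -1.68 at 34 hpf, a difference of 2.42 (edgeR adjusted p = 0.000918). atoh1b had 0.85 at 48 hpf and 0.12 at 34 hpf, a difference of 0.73. tnfrsf9a differed by 1.77 (not called with limma-voom, 0.0610). ctss2.1, a cathepsin S gene, had 9.796, 9.75, 14.8 and 7.93 CPM in knockouts, against 4.69, 3.43, 3.26 and 4.39 CPM in siblings at 48 hpf and a difference of 2.51. Its call at 48 hpf was lost with limma-voom (0.118), and that of the difference with limma-voom (0.138), the replicate block (0.0719) and without knockout replicate 3 or any sibling replicate (0.0613 to 0.104). ddhd2, a phospholipase, had a log2 fold change of -0.36 at 48 hpf, not called, and -2.44 at 34 hpf, with a difference of 2.08. ctsh, cathepsin H, and dpp4, a dipeptidase, had log2 fold changes of 0.18 and 0.48 at 48 hpf, neither called, and -1.63 and -1.15 at 34 hpf. The difference of 1.82 for ctsh was not called without knockout replicate 3 or 4 or any sibling replicate (0.0786 to 0.124) or with limma-voom (0.0660), and that of 1.64 for dpp4 without knockout replicate 3 or 4 or sibling replicate 3 (0.0513 to 0.0673) or with the replicate block (0.0680).

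**Figure D5:**
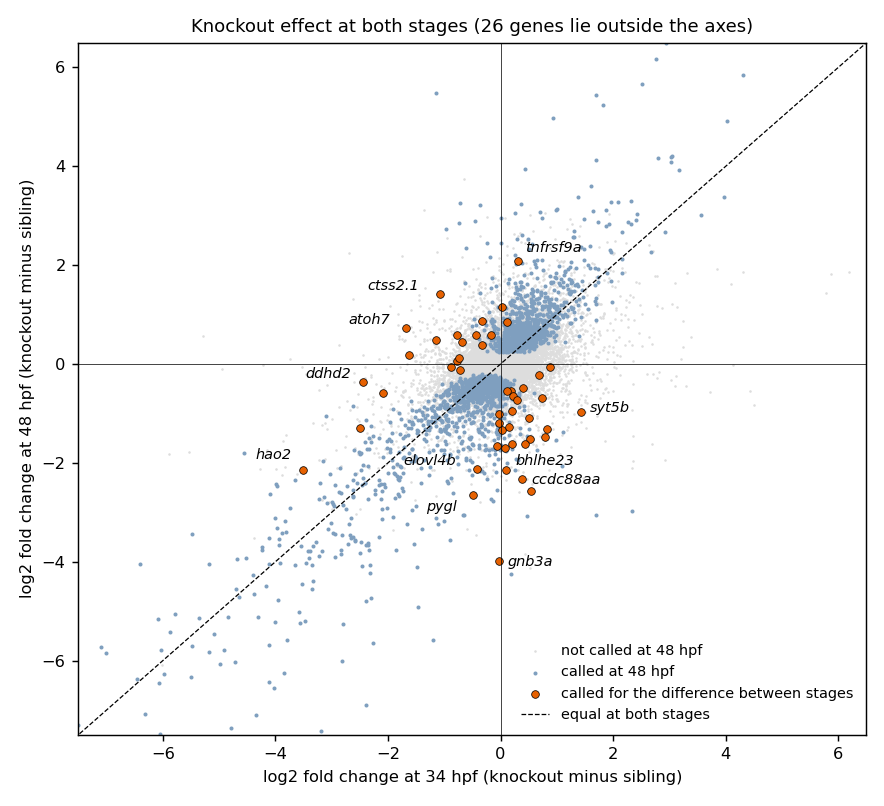
Each point is a gene, with its log2 fold change, knockout minus sibling, at 34 hpf on the horizontal axis and at 48 hpf on the vertical axis. 26 genes lie outside the axes. The 49 genes called for a difference between the stages are outlined, with gnb3a, ccdc88aa and bhlhe23 near 0 at 34 hpf and below -2 at 48 hpf. At 34 hpf these genes averaged 0.9374 CPM or less in both genotypes.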

How the data were processed

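TRIzol was used to extract total RNA, and 1 µg of it went into each VAHTS Universal V8 library, per the labels' protocols. The table deposited by the authors gives unnormalized counts for gene symbols in 16 libraries. Reads went through featureCounts 2.0.6, STAR 2.7.10b, Trim Galore 0.6.10 and FastQC 0.12.1 (named here in no order) with genome build GRCz11, per the submitters' processing notes. The sources used here do not give the strand setting, the annotation or the handling of reads with several alignments, so near-identical copies and overlapping genes are uncertain.

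Genes were filtered with filterByExpr, scaled by TMM and fitted in edgeR 4.0.16 (glmQLFit, glmQLFTest; R 4.3.3) in a single model of 4 groups over 16 libraries, so that the 34 hpf libraries share in the estimate of the spread. The fit was tested on simulated data. The contrasts were knockout minus sibling at 48 hpf and this difference minus that at 34 hpf. Calls required an adjusted p (Benjamini-Hochberg, 24084 genes) below 0.05. CPM use TMM-scaled library sizes and are not per length, so levels are not compared between genes. Folds against 0 counts take 3 counts, summed over the 4 libraries, as the floor, and ratios with 1 to 3 counts a 95% counting interval. Shares of counts were compared by exact two-sided permutation of the 8 libraries. No 2 libraries of a group agreed within counting noise (lowest ratio of variance to that noise 7.92).

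Repeat numbers come from the labels. Deviations from the group means correlated between same-numbered knockout and sibling libraries of 48 hpf at 0.284, 0.174, 0.191 and 0.430, all above 0.1. Replicates 2 and 3 correlated as highly crosswise (0.211 and 0.224). Equal numbers were taken as pairs only in the fit with a block and where same-numbered pairs are named. The model reported and the permutations of shares ignore the pairing. A fit with the number as a block within stage was an alternative, beside DESeq2 1.42.0, limma-voom (limma 3.58.1), 2 other scalings, 2 other filters, the 48 hpf libraries alone and leaving out each library.

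Genes given with values were hnf4a, hnf4b and hnf4g; the 12 largest rises and falls among called genes whose groups did not overlap and whose average log2 CPM reached 1; the 8 largest gains and losses of CPM; the 6 smallest p in each direction; the 6 largest differences between stages each way; and the called members of the gene lists with the smallest p, up to 4 in a list. Symbols with clone, accession or locus prefixes were not eligible. rx1, il1b, mmp9, hmgcra and crx were added after their values were seen. The comparison, the 68 lists and the named members were chosen with earlier results of these data known. Promoter and protein sequences are not used here, and some genes that meet the rule are not reported here.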

Additional observations from a re-analysis of the deposited data

Results flagged for a closer look

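In 29 of 362 groups of 4 libraries checked, 1 library lay so far from the nearest of the others that the gap, as a share of the group's range, exceeded Dixon's critical value for 4 samples. For independent, normally distributed values chance gives about 1 in 20 such groups. The groups checked share libraries and many genes were chosen by their values. A library is also flagged wherever the others of its group hold 0 counts. The 29 therefore cannot be set against that share. In 13 of these the library was knockout replicate 1. Knockout replicate 1 lay above its group with 62.95 CPM for tcap (the nearest at 12.6), 69.8 CPM for cbx7a (the nearest at 10.01), 95.4 CPM for mmp13a (the nearest at 7.33) and 59.7 CPM for fosl1a (the nearest at 5.57). It was likewise apart with 0.0929 CPM for ces3 (the nearest at 0), 0.0464 CPM for akr1a1a (the nearest at 0), 26.1 CPM for slc16a9a (the nearest at 9.39) and 111 CPM for arrdc3b (the nearest at 60.8). It was likewise apart with 54.5 CPM for nupr1b (the nearest at 37.6), 34.7 CPM for ctslb (the nearest at 8.44), 23.5 CPM for il1b (the nearest at 0.359) and 175 CPM for mmp9 (the nearest at 20.7). Knockout replicate 4 lay above its group with 0.0468 CPM for cyp4v8 (the nearest at 0) and 0.0234 CPM for f7 (the nearest at 0). Sibling replicate 1 lay below its group with 2383 CPM for hspa8 (the nearest at 3333), 166 CPM for mthfd1l (the nearest at 236) and 249.9 CPM for gpx4a (the nearest at 338). Knockout replicate 1 lay below its group with 87.95 CPM for apoa1a (the nearest at 213). Knockout replicate 3 lay above its group with 20.8 CPM for fga (the nearest at 9.78). Sibling replicate 4 lay below its group with 89.3 CPM for acsbg2 (the nearest at 96.2), 42.00 CPM for suclg2 (the nearest at 48.7) and 7.17 CPM for haao (the nearest at 8.56). Sibling replicate 1 lay above its group with 35.4 CPM for pklr (the nearest at 13.6). Sibling replicate 4 lay above its group with 253 CPM for txnipa (the nearest at 154). Knockout replicate 2 lay above its group with 1.25 CPM for ckmt2a (the nearest at 0.449) and 0.719 CPM for matn1 (the nearest at 0.135). Among shares of counts, lens took 0.851% in knockout replicate 2, the highest of its group, with the nearest at 0.682%, epidermis and periderm took 2.83% in knockout replicate 3, the lowest of its group, with the nearest at 2.96% and leukocytes took 0.114% in sibling replicate 1, the highest of its group, with the nearest at 0.0943%. The values near 0 for cyp4v8, ces3, akr1a1a and f7 stand for 1 to 4 reads.

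The knockout effect differed between 48 and 34 hpf, by edgeR's test of the difference itself, for genes described in the report. The difference of log2 fold changes was -3.94 for gnb3a, -2.701 for ccdc88aa, -2.397 for syt5b, -2.26 for bhlhe23 and -2.16 for pygl. It was -2.15 for scamp5b, -1.82 for rcvrn2, -1.71 for elovl4b and -1.17 for rlbp1a. In the other direction it was 2.51 for ctss2.1, 2.42 for atoh7, 2.08 for ddhd2, 1.82 for ctsh, 1.77 for tnfrsf9a, 1.64 for dpp4 and 0.73 for atoh1b.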

How the results depend on the processing

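Across 161 called genes given with values, 146 kept their call in every alternative that gave them a value, and none changed direction. With the replicate block 1165 genes were higher and 1386 lower, and 24 and 29 differed between the stages; beside the calls named in the report it changed no other call of these genes. With no library left out DESeq2 called 1447 higher and 1688 lower, limma-voom 1053 and 1483, and upper quartile scaling 1309 and 1160, which turns the balance to 53% higher, against 47.4% in the fit reported. Without knockout replicate 1 it was 38.7%. Leaving out 1 library gave 680 to 1093 higher and 826 to 1258 lower genes. For the difference between stages DESeq2 called 80 more positive and 97 more negative, limma-voom 18 more negative, and leaving out 1 library gave 13 to 29 and 10 to 39; the cause was not tested. With the 10 most abundant genes left out of the total, the knockout minus sibling share was -1.51 percentage points for apolipoproteins and 1.73 for ribosomal proteins, since that total is smaller. For epidermis it was 0.269, because krt4, 1 of these 10 genes, was left out of the list as well. With krt4 the epidermal shares were 2.93% in knockouts and 2.37% in siblings. Genes with 0 counts in a group have only a bound for their fold at this depth.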

Other observations

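Of the 100 tested genes nearest to hnf4a in gene order, 50 on each side in RefSeq's GRCz12tu annotation, 18 were called at 48 hpf (11 higher and 7 lower), and of the 100 nearest to hnf4b 14 (6 higher and 8 lower), beside 11.3% of all 19037 tested genes placed in that annotation. The difference between these shares was not tested.

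Outside the groups described above, 7 of 33 ionocyte and mucous cell genes were higher and 3 lower at 48 hpf, 5 of 35 pronephros genes were higher and 1 lower, and 5 of 43 pigment cell genes were lower and 1 higher. Called members were 30.3%, 17.1% and 14% of these lists, beside 10.04% of all genes tested. Leaving out 1 library gave 1 to 5 higher and 1 to 3 lower ionocyte and mucous cell genes, 1 to 4 higher pronephros genes, and 3 to 5 lower and 1 to 2 higher pigment cell genes. In the other settings 4 to 8 pigment cell genes were lower.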
